A study of Mus musculus with 9 samples.

Results

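Genes of antigen presentation and T cell costimulation were followed in sorted brain immune cells of mice after a transient ischemic attack (TIA). The members were the rows of the deposited expression table for 8 genes chosen by name, namely Ifi30, Cd74, Psmb8, H2-T23, Cd83, Cd86, Cd40 and Cd274. Of these, 7 were among the 757 genes of the table and are described here. Cd274, which encodes the coinhibitory ligand PD-L1, is not analysed here.

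The mice, all male as the study states, had either a TIA, in which a filament briefly closed the middle cerebral artery, or sham surgery without the filament. There were 3 groups of 3 animals, labelled Sham, TIA 24h and TIA 3d, the numbers giving the time between TIA and sampling. By the study's methods the mice were young adults, and wild-type C57BL6/J mice were among the lines it used. The labels do not give the strain sorted here and name no transgene. All brains, Sham included, were put into buffered saline containing actinomycin D, which blocks transcription, then dissociated with papain and enriched on Percoll. Live cells positive for CD45 and CD11b, which are surface proteins of myeloid cells, were then sorted. The RNA was counted on an nCounter SPRINT instrument with a mouse neuroinflammation panel, which counts barcoded probes without amplification. The gate does not separate microglia, the resident macrophages of the brain, from other myeloid cells.

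Antigen presenting cells cut proteins into peptides and show them to T cells on MHC molecules. Peptides made by the proteasome are loaded on MHC class I, and peptides made in lysosomes are loaded on MHC class II. A T cell answers fully when it also receives costimulation, for example through CD86 or CD40 on the presenting cell. Resting microglia are known for low levels of MHC class II and of costimulatory molecules, which rise with inflammatory stimuli.

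The lanes differed in depth and in cell content, and both differences ran with the time point. Values are log2 of counts that the authors scaled to housekeeping probes, and the whole counts behind them could be recovered. Lane totals were 25582, 14897 and 6560 counts in Sham, 10929, 7924 and 7248 in TIA 24h, and 51533, 29200 and 62883 in TIA 3d. The deepest lane therefore held 9.59 times the counts of the shallowest, and the 3 deepest lanes were those of TIA 3d. The 13 measured microglial markers made up 2401 to 2689 of every 10000 counts in the TIA 3d lanes, 294 to 724 in the TIA 24h lanes, and 2867, 1321 and 354 in the Sham lanes. The lanes lowest in these markers were TIA 24h 3 and Sham 3. Every one of the 13 markers passed the test as higher in TIA 3d than in TIA 24h. The 10 oligodendrocyte markers ran from 30.1 to 59.8 per 10000 in TIA 3d, from 240 to 543 in TIA 24h, and from 53.2 to 577 in Sham, and 5 of them passed as lower in TIA 3d than in TIA 24h. The 5 markers of monocytes and neutrophils held 21.95 to 48.3 per 10000 in TIA 3d, 56.7 to 75.9 in TIA 24h and 50.8 to 68.6 in Sham. Of these, Fpr1, at only 7 to 12 counts a lane, passed as lower in TIA 3d than in TIA 24h and 0 passed as higher. Csf3r, at 15 to 119 counts, was the 1 marker of the 5 above 0 there (0.98 on the log2 scale) and did not pass (limma, adjusted p = 0.118). Neither the 2 dendritic cell markers nor Cd163 of border macrophages passed. Of other markers, 1 of 4 for astrocytes, 2 of 6 for endothelium and 3 of 14 for T and NK cells passed as lower in TIA 3d than in TIA 24h. For neurons 0 of 6 and for B cells 0 of 5 passed, and 0 in any of these lists passed as higher. Time point, lane depth and marker content cannot be told apart in this design. In bulk RNA of this kind, fewer cells of a type and less RNA per cell cannot be told apart either.

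Of the 7 genes, only Cd83 passed the test, and only between the TIA time points, with 3.33-fold higher values in TIA 3d than in TIA 24h. In that comparison 19.2% of all genes passed, 11.6% as higher, so 1 of 7 was near the share of the table. Cd86, Psmb8 and Ifi30 were each above every Sham and every TIA 24h lane in all 3 TIA 3d lanes, but did not pass, and 22.1% of all genes were separated as higher between the TIA groups. Cd74 and H2-T23 overlapped between all groups. Cd40 had its lowest mean in TIA 3d, with overlapping groups. No gene of the 7 differed from Sham at TIA 24h beyond the spread of the lanes.

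**Figure D1:**
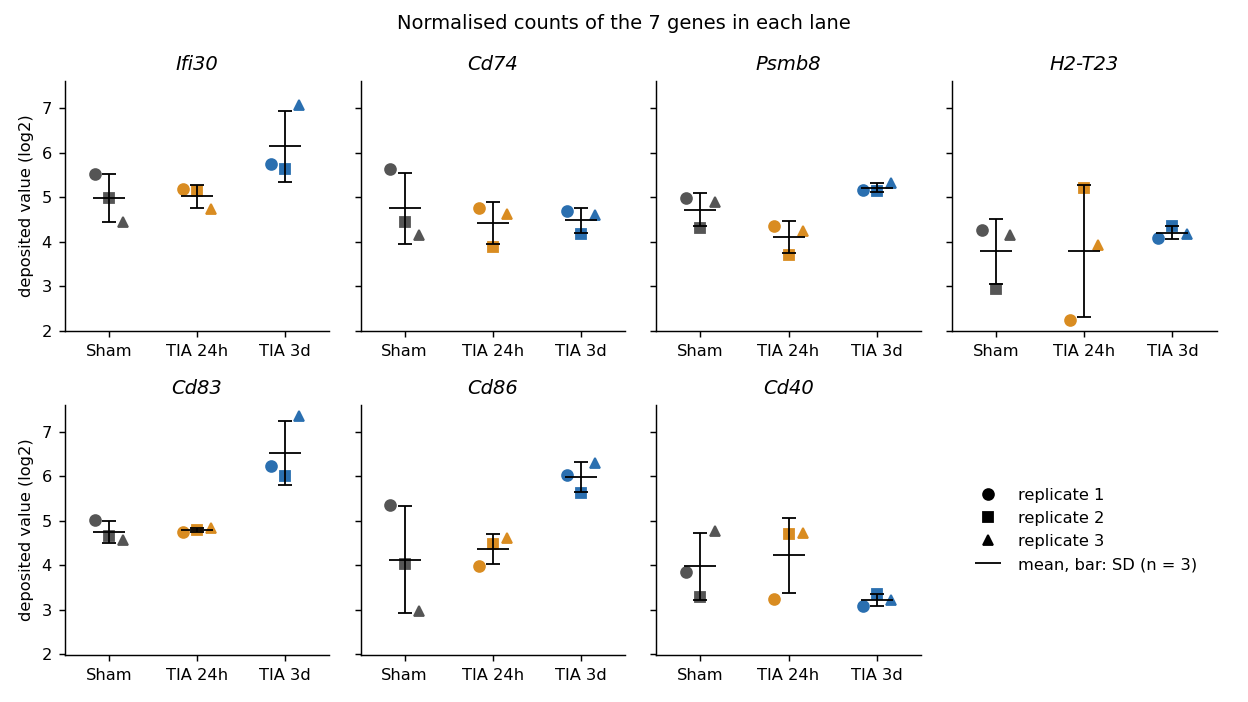
Deposited values (log2 of housekeeping-normalised counts, y axis) of the 7 genes in the 3 lanes of each group (x axis), with the symbol giving the replicate and the line and bar giving the mean and SD (n = 3). Psmb8, Ifi30, Cd86 and Cd83 lie above all other lanes in the 3 TIA 3d lanes, Cd74, H2-T23 and Cd40 overlap between the groups, and the Cd83 values of TIA 24h lie closest together (SD 0.04).

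Ifi30 and Cd74 serve the MHC class II route. Ifi30 encodes GILT, a lysosomal thiol reductase that opens disulfide bonds of antigens. Its log2 values were 5.52, 4.99 and 4.43 in Sham, 5.18, 5.13 and 4.73 in TIA 24h, and 5.74, 5.63 and 7.06 in TIA 3d. The first 2 TIA 3d lanes lay only just above Sham 1, while TIA 3d 3 stood far above, with 244 counts against 95 and 58 in the other TIA 3d lanes and 11 to 48 in Sham and TIA 24h. The difference was 1.13 ± 0.48 (log2, SE) between TIA 3d and TIA 24h (limma, adjusted p = 0.097) and 1.16 ± 0.48 between TIA 3d and Sham (adjusted p = 0.206). Neither passed the threshold of an adjusted p of 0.05. As a share of the lane total, the Ifi30 values of TIA 3d overlapped with both other groups.

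Cd74 encodes the invariant chain, the chaperone that keeps the peptide groove of MHC class II closed until the lysosome. Its log2 values were 5.64, 4.45 and 4.14 in Sham, 4.74, 3.89 and 4.62 in TIA 24h, and 4.69, 4.16 and 4.59 in TIA 3d. The single high lane was Sham 1, the lowest was TIA 24h 2, and the groups overlapped. The difference was -0.33 (95% interval -1.34 to 0.68) between TIA 24h and Sham, -0.26 (-1.27 to 0.75) between TIA 3d and Sham, and 0.07 (-0.95 to 1.08) between TIA 3d and TIA 24h. All 3 intervals include 0, and differences within them were not detectable with these lanes. As a share of the lane total, Cd74 held 7.00 to 8.93 of every 10000 counts in TIA 3d, below the 10.1 to 20.3 of the other lanes, while its deposited values overlapped. On this scale 55.1% of all genes were separated as lower than TIA 24h and 21.8% as lower than Sham.

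Psmb8 and H2-T23 belong to the MHC class I route. Psmb8 encodes LMP7, the inducible catalytic subunit that replaces its constitutive counterpart in the immunoproteasome and favours peptides that fit MHC class I. Its log2 values were 4.98, 4.30 and 4.88 in Sham, 4.36, 3.69 and 4.24 in TIA 24h, and 5.17, 5.13 and 5.32 in TIA 3d. The TIA 3d lanes were high and close together (mean 5.21 ± 0.10, SD, n = 3). Of the TIA 24h lanes, TIA 24h 2 and TIA 24h 3 lay below all Sham lanes and TIA 24h 1 just above Sham 2. Every TIA 24h lane was below the Sham mean and every TIA 3d lane above it, a pattern shown by 9.51% of all genes. Psmb8 was 2.16-fold higher in TIA 3d than in TIA 24h, a log2 difference of 1.11 ± 0.39 (SE) that did not pass (limma, adjusted p = 0.06). Against Sham it was -0.62 ± 0.39 in TIA 24h (adjusted p = 0.723) and 0.49 ± 0.39 in TIA 3d (adjusted p = 0.468). As a share of the lane total, the groups overlapped.

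H2-T23 encodes Qa-1, a nonclassical MHC class I molecule that shows leader peptides of other class I proteins to inhibitory receptors of natural killer cells. Its log2 values were 4.26, 2.93 and 4.14 in Sham, 2.24, 5.21 and 3.92 in TIA 24h, and 4.07, 4.36 and 4.18 in TIA 3d. On this normalised scale TIA 24h held both the lowest and the highest lane, and the TIA 3d lanes lay between them. The recovered counts were 3, 20 and 8 in TIA 24h and 30, 24 and 33 in the deeper TIA 3d lanes. H2-T23 has close relatives among the MHC class I genes, and whether its probe separates them is not given in the sources used here. The widest spread of the 7 genes was that of H2-T23 in TIA 24h (SD 1.49, n = 3). The differences were 0.01 (95% interval -1.36 to 1.39) for TIA 24h against Sham, 0.42 (-0.95 to 1.80) for TIA 3d against Sham and 0.41 (-0.96 to 1.79) for TIA 3d against TIA 24h.

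The stretch before the start site was available for H2-T23, Psmb8 and Ifi30, from a RefSeq table of build GRCm38.p6. These 3 are shown because they were the ones available, and they let the 2 class I genes and a class II gene be compared for motifs of interferon and NF-kB signalling. Each is the 250 bases before the start, read 5′ to 3′ on the gene's own strand, with motif matches in capitals.
H2-T23, chr17:36032702-36032951, minus strand: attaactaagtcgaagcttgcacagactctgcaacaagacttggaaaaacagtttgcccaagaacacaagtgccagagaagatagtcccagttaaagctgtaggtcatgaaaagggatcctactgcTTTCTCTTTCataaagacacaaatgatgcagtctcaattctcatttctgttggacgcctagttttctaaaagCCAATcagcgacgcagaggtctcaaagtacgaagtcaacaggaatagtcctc
Psmb8, chr17:34197945-34198194, plus strand: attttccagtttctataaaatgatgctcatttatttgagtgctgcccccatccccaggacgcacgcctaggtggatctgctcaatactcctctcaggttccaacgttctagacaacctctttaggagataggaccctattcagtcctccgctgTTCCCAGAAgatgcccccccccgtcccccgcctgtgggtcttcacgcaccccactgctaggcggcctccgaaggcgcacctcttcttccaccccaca
Ifi30, chr8:70766664-70766913, minus strand: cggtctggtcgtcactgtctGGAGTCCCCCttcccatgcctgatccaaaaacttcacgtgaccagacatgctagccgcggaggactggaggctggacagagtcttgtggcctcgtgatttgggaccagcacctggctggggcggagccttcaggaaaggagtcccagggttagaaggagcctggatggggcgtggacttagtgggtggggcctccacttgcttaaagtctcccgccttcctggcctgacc

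Both strands of the 250 bases before and 50 bases after the start were searched for 4 motifs. The motifs were the core of the interferon-stimulated response element (GAAA, then 2 bases of any kind, then GAAA), the core of the gamma-activated site (TTCNNNGAA), the Y box core of MHC promoters (CCAAT) and the kappaB motif. H2-T23 held the interferon-stimulated response element core on the opposite strand, its first printed base at -124, and a CCAAT at -52. Psmb8 held a gamma-activated site core at -97, which reads the same on both strands under this pattern. Ifi30 held a kappaB match on the opposite strand at -230. Among 32851 promoters of the same length, 3.44% held the interferon-stimulated response element core, 8.3% the gamma-activated site core, 37.4% a CCAAT and 8.46% a kappaB match. A match describes these letters and is no measurement of binding.

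Cd83, Cd86 and Cd40 act at the contact with T cells. Cd83 encodes a membrane protein that keeps MHC class II and CD86 on the cell surface by opposing their ubiquitination. Its log2 values were 5.03, 4.65 and 4.56 in Sham, 4.74, 4.79 and 4.83 in TIA 24h, and 6.22, 6.0 and 7.35 in TIA 3d. The recovered counts were 34, 23 and 12 in Sham, 17, 15 and 15 in TIA 24h, and 133, 75 and 298 in TIA 3d. All TIA 3d lanes lay well above the highest other lane, Sham 1, and Sham and TIA 24h overlapped. Cd83 was 3.33-fold higher in TIA 3d than in TIA 24h, a log2 difference of 1.74 ± 0.43 (SE, 95% interval 0.81 to 2.67), and passed the test (limma, adjusted p = 0.0249). Against Sham the difference in TIA 3d was about as large, 1.78 ± 0.43, and did not pass (adjusted p = 0.114). In TIA 24h against Sham it was 0.04 ± 0.43 (adjusted p = 0.988).

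In the F test over the 3 groups, Cd83 had an adjusted p of 0.0533 (limma), which did not pass. As a share of the lane total, Cd83 held 25.7 to 47.4 of every 10000 counts in TIA 3d, against 13.3 to 18.3 in Sham and 15.6 to 20.7 in TIA 24h, so the TIA 3d lanes were separated on this scale too, as were 10.2% of all genes as higher than TIA 24h and 5.02% as higher than Sham. Within each lane, Cd83 ranked above 78.5 to 83.0% of the genes in Sham, 76.6 to 87.7% in TIA 24h and 90.8 to 94.8% in TIA 3d. These ranks also put every TIA 3d lane above the other lanes, but their difference of 10.2 between the TIA time points did not pass (limma, adjusted p = 0.402). Without the lanes lowest in microglial markers, TIA 24h 3 and Sham 3, the difference between the TIA time points was 1.76 ± 0.49 (adjusted p = 0.036). The call was lost without TIA 3d 1 (1.89, adjusted p = 0.0827), without TIA 3d 3 (1.32, adjusted p = 0.102), without TIA 24h 2 (1.74, adjusted p = 0.0656) or without TIA 24h 3 (1.76, adjusted p = 0.0884), where no gene of the table passed.

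Cd86 encodes B7-2, the ligand that engages CD28 on T cells for activation and CTLA-4 for restraint. Its log2 values were 5.36, 4.03 and 2.97 in Sham, 3.98, 4.47 and 4.62 in TIA 24h, and 6.03, 5.63 and 6.30 in TIA 3d. The Sham lanes were spread widely (SD 1.20, n = 3), from 43 counts in Sham 1 to 4 counts in Sham 3, and every TIA 3d lane, at 58 to 144 counts, lay above them. Cd86 was 3.09-fold higher in TIA 3d than in TIA 24h, a log2 difference of 1.63 ± 0.54 (SE), which missed the threshold (limma, adjusted p = 0.0507). Against Sham the TIA 3d difference was 1.86 ± 0.54 (adjusted p = 0.158). It was 2.48 and passed without Sham 1 (adjusted p = 0.00965), and did not pass without Sham 2 (1.82, adjusted p = 0.25) or without Sham 3 (1.29, adjusted p = 0.422). In TIA 24h against Sham it was 0.23 ± 0.54 (adjusted p = 0.934). Without TIA 24h 3 and Sham 3, the difference between the TIA time points was 1.76 ± 0.50 and passed (adjusted p = 0.037), while Psmb8 (1.18, adjusted p = 0.0787), Ifi30 (0.99, adjusted p = 0.167) and Cd40 (-0.75, adjusted p = 0.271) did not pass without these lanes either. As a share of the lane total, Cd86 held 19.9 to 22.9 of every 10000 counts in TIA 3d, above the 6.10 to 17.9 of the other lanes. Of all genes, 10.2% were separated as higher than TIA 24h on this scale, and 5.02% as higher than Sham.

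Cd40 encodes a receptor of the TNF receptor family that is engaged by CD40 ligand on T cells and signals to NF-kB. Its log2 values were 3.85, 3.30 and 4.78 in Sham, 3.24, 4.69 and 4.73 in TIA 24h, and 3.07, 3.36 and 3.22 in TIA 3d. The TIA 3d lanes were low and close together, yet overlapped with Sham 2 and TIA 24h 1. The recovered counts hardly moved, from 6 to 17 over all lanes, while the lane totals varied 9.59-fold. Cd40 thus held 2.70 to 4.11 of every 10000 counts in TIA 3d and 5.49 to 21.3 in the other lanes. Of all genes, 55.1% were separated as lower than TIA 24h on this scale, and 21.8% as lower than Sham. The difference was -1.0 ± 0.51 (SE) between TIA 3d and TIA 24h (limma, adjusted p = 0.158), -0.76 ± 0.51 between TIA 3d and Sham (adjusted p = 0.384) and 0.25 ± 0.51 between TIA 24h and Sham (adjusted p = 0.926). In each lane, the members' counts were set beside those of 19 markers of B, T and NK cells. The highest of these markers had 17 to 33 counts, and Cd40 exceeded it in 0 of 9 lanes, H2-T23 in 1, Cd74 in 3, Psmb8, Cd86 and Cd83 in 4 each and Ifi30 in 6. In TIA 24h, the Cd83 counts of 17, 15 and 15 lay below the highest marker of each lane, at 19, 27 and 21. The same held for the Cd86 counts (10, 12 and 13) and the Psmb8 counts (13, 7 and 10) of TIA 24h. Whether these counts stand above the background of the lanes was not tested, and the folds against TIA 24h rest on them. Probes differ in efficiency, so no order between genes follows from these counts.

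**Figure D2:**
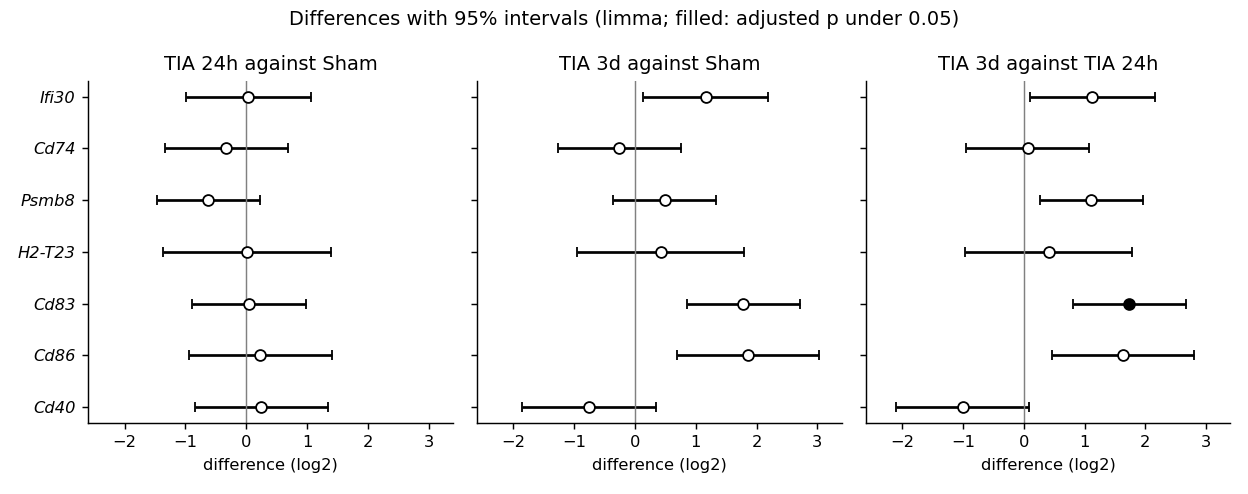
Log2 differences between the groups (x axis) for the 7 genes (y axis), as points with 95% intervals from the limma fit over all 757 genes, filled where the adjusted p was under 0.05. Only Cd83 in TIA 3d against TIA 24h is filled, and all 7 intervals of TIA 24h against Sham include 0.

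Counted over the group of genes, the F test called 0 of 7 members and 0% of all genes, with 4 members and 235 of all genes at an unadjusted p under 0.05 in limma. Between TIA 24h and Sham, 0 of 7 members passed, as did 0% of all genes, with 0 members and 57 genes under an unadjusted p of 0.05. No member was separated between these groups, against 8.06% of all genes separated as higher and 1.72% as lower in TIA 24h. The median difference of the members was 0.03 on the log2 scale, beside 0.15 over all genes.

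Between TIA 3d and Sham, 0 of 7 members and 0% of all genes passed. At an unadjusted p under 0.05 there were 3 members, namely Cd83, Cd86 and Ifi30, and 148 of all genes. Psmb8, Ifi30, Cd86 and Cd83, 4 of 7 members, were higher in every TIA 3d lane than in every Sham lane, against 15.1% of all genes. No member was separated as lower, against 9.11% of all genes. As a share of the lane total, only Cd86 and Cd83 were separated as higher, against 5.02% of all genes. Cd74 and Cd40 were separated as lower on that scale, against 21.8%. The median difference was 0.49 for the members and -0.01 over all genes. These medians were -0.27 and -0.77 with scaling to the lane total, and 0.27 and -0.03 without Sham 2.

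Between TIA 3d and TIA 24h, 1 of 7 members passed, while 19.2% of all genes passed and 11.6% passed as higher, so the share of members called was near that of the table. The same 4 of 7 members were separated as higher, against 22.1% of all genes, and 0 as lower, against 26.3%. As a share of the lane total, only Cd86 and Cd83 were separated as higher, against 10.2% of all genes. Cd74 and Cd40 were separated as lower on that scale, against 55.1%. The median difference was 1.11 for the members and -0.25 over all genes. These medians were 0.16 and -1.19 with scaling to the lane total, 0.37 and -0.03 with quantile normalisation, and 0.67 and -0.20 without TIA 3d 3. The last 2 comparisons share the TIA 3d lanes, so their separations are not independent of each other. With 3 lanes a group, the p values measure only the spread between these animals.

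Depth of the lane moved with several of these values. Over the 9 lanes, the log2 value correlated with the log2 lane total for Cd86 (Pearson r = 0.888, exact permutation p = 0.00203, adjusted over the 7 genes 0.00475, Spearman rho = 0.85, p = 0.00607, adjusted 0.0145). For Cd83, r was 0.884 (exact permutation p = 0.000245, adjusted 0.000858) and rho 0.833 (p = 0.00827, adjusted 0.0145). For Ifi30, r was 0.882 (exact permutation p = 0.000107, adjusted 0.000752) and rho 0.95 (p = 0.000353, adjusted 0.00247). These 3 genes were thus high in the deep lanes, which include all of TIA 3d. The permutation treats all 9 lanes as exchangeable, so its p values do not separate depth from group.

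Psmb8 showed the same direction (r = 0.77, exact permutation p = 0.0185, adjusted 0.028, rho = 0.8, p = 0.0138, adjusted 0.0194), and Cd40 the opposite (r = -0.78, exact permutation p = 0.02, adjusted 0.028, rho = -0.833, p = 0.00827, adjusted 0.0145). Cd74 (r = 0.353, exact permutation p = 0.372, rho = 0.333, p = 0.385) and H2-T23 (r = 0.095, exact permutation p = 0.809, rho = 0.183, p = 0.644) showed no relation past the threshold. Without TIA 3d 1 and TIA 3d 3, the lanes farthest from the median total, r was 0.875 for Ifi30, 0.765 for Cd86, 0.738 for Cd83, 0.609 for Psmb8 and -0.722 for Cd40, and none passed after adjustment (exact permutation, smallest adjusted p = 0.0583). Within the 6 Sham and TIA 24h lanes, r was 0.81, 0.632, 0.617, 0.418 and -0.666 in the same order, with no adjusted p under 0.05. Cd74 had the largest r of the members in these lanes, at 0.818 (exact permutation p = 0.0472, adjusted 0.185). Over all genes of the table, r was above 0.7 for 21.3% and below -0.7 for 24.0%.

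**Figure D3:**
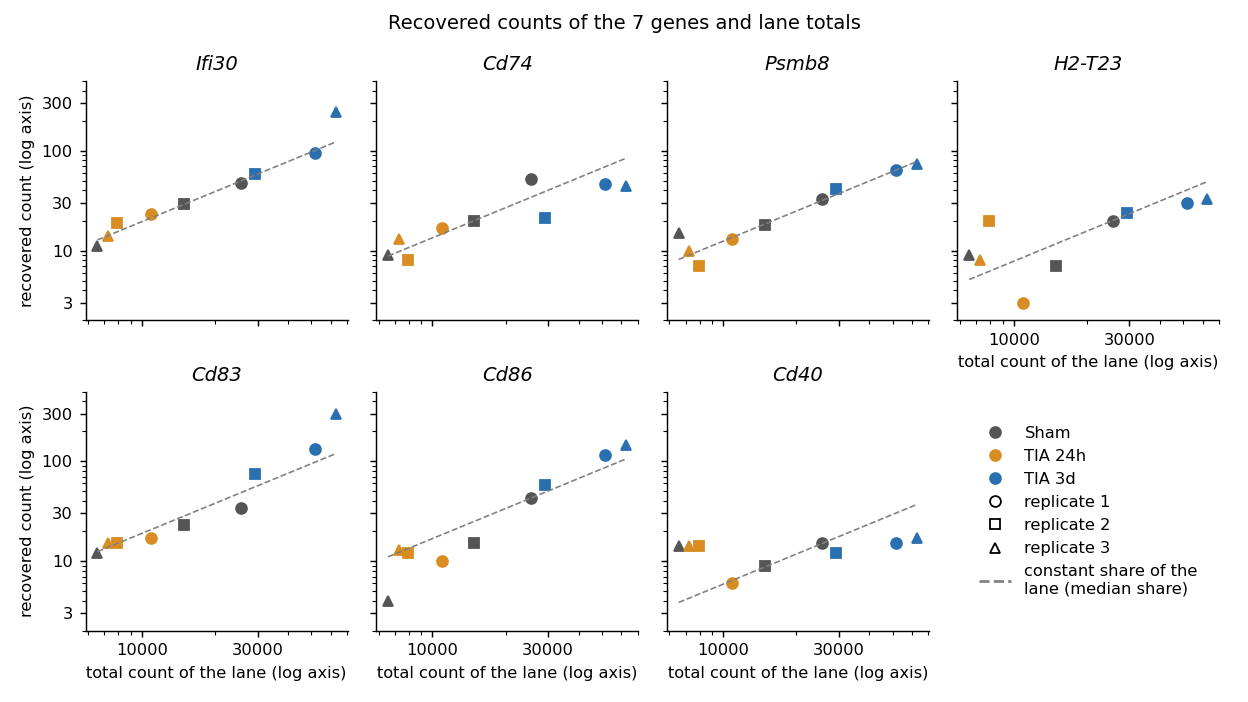
Recovered counts of the 7 genes (y axis, log scale) against the total count of the lane (x axis, log scale), with colour for the group, symbol for the replicate and a dashed line for a constant share of the lane at the gene's median share. The Cd83 counts of TIA 3d (75 to 298) lie above the line, and the Cd40 counts (6 to 17) stay nearly level from the shallowest to the deepest lane.

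The size of the TIA 3d difference depended on the scaling of the lanes. In place of housekeeping probes, scaling to the lane total moved the median difference of all genes between TIA 3d and TIA 24h from -0.25 to -1.19. On that scale Cd83 was 0.79 ± 0.45 (SE) and did not pass (limma, adjusted p = 0.156). Cd40 was -1.95 ± 0.62 and passed as lower (adjusted p = 0.0246), as did 41% of all genes, against 4.49% as higher. Cd86 was 0.68 ± 0.50, Ifi30 0.18 ± 0.46, Psmb8 0.16 ± 0.46, H2-T23 -0.54 ± 0.70 and Cd74 -0.88 ± 0.45, none of which passed.

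With each lane centred on its median, the median difference of all genes was 0.09, and Cd83 (2.08 ± 0.45, adjusted p = 0.017), Cd86 (1.97 ± 0.59, adjusted p = 0.0372) and Psmb8 (1.45 ± 0.39, adjusted p = 0.0277) passed. With quantile normalisation Cd83 was 0.78 ± 0.39 (adjusted p = 0.246) and no member passed. With the summed microglial markers as a covariate, Cd83 was 1.35 ± 0.67, Psmb8 1.03 ± 0.60 and Cd86 0.05 ± 0.70, and no gene of the table passed. Cd83 and Psmb8 were above 0 under all 22 alternatives run, and Cd86 under 21 of 22, the exception being the lane total as a covariate (-0.52). Ifi30 turned under the same covariate (-0.48), and Cd40 was below 0 under 20 of 22, with 0.45 under that covariate and 0.19 with the microglial markers. The part of depth and of cell content in these differences was not tested.

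**Figure D4:**
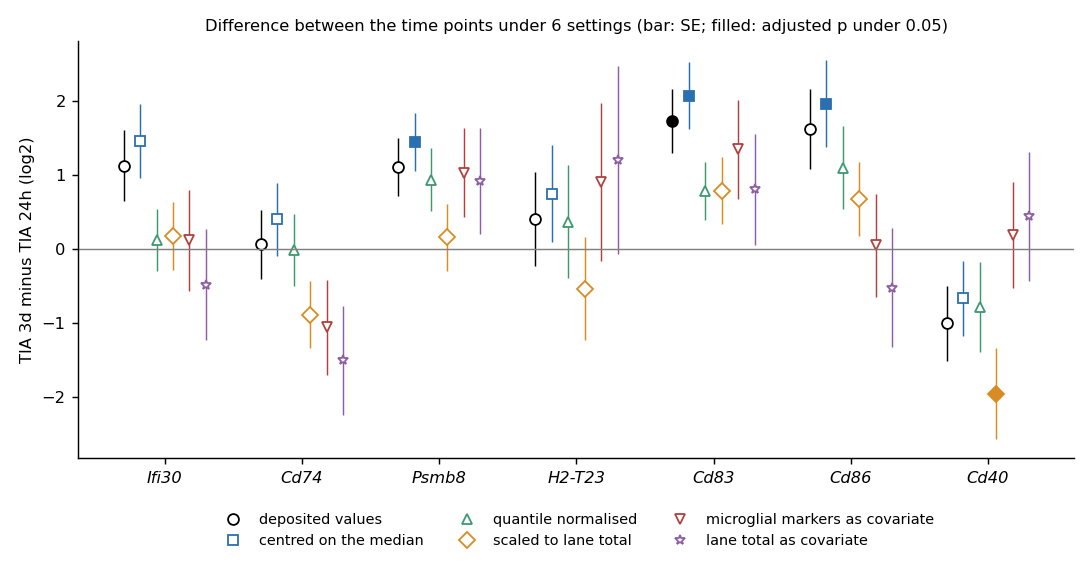
Difference between TIA 3d and TIA 24h (y axis, log2) for each of the 7 genes (x axis) under 6 settings, as points with SE bars, filled where the limma adjusted p was under 0.05. Cd83 lies above 0 in all 6 settings and is filled for the deposited values and the median-centred ones, and Cd86 runs from 1.97 to -0.52.

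The 7 genes did not move as a single group. Across the 9 lanes, Pearson r of log2 values was 0.929 for Ifi30 and Cd83, 0.86 for Cd86 and Cd83 and 0.853 for Ifi30 and Cd86, while Cd74 and H2-T23 had r = -0.272. These correlations share lane depth and cell content, and are descriptions over 9 lanes. Together the 7 genes held 0.812 to 1.13% of the counts in Sham, 0.814 to 1.20% in TIA 24h and 0.968 to 1.36% in TIA 3d, so their summed share overlapped between the groups.

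Among the other genes of the table, those with the pattern most like Ifi30 were Tlr2 (r = 0.985 over 9 lanes), the receptor of bacterial lipoproteins, and Pmp22 (r = 0.955). Those most like Cd83 were Ifnar1 (r = 0.959), a subunit of the type I interferon receptor, and Rpl9 (r = 0.936), a ribosomal protein. For H2-T23 they were Grap (r = 0.837) and Birc2 (r = 0.835), and for Cd74 Smarca4 (r = 0.731) and Crebbp (r = 0.703). Both genes most like Cd83 had their highest counts in TIA 3d 3, at 78 for Ifnar1 and 172 for Rpl9, the lane where Cd83 was highest too. The other members had a median count under 20 over the lanes and were not compared in this way.

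Further genes of the same routes were taken from lists chosen by function, of which few were measured. Of the class II list, 2 of 18 genes were in the table, Ctss and Lgmn, which encode the lysosomal proteases cathepsin S, the enzyme that trims the invariant chain, and legumain. Ctss had 820, 213 and 11 counts in Sham, 82, 39 and 19 in TIA 24h, and 2068, 984 and 2762 in TIA 3d. Lgmn had 725, 171 and 7, then 53, 24 and 27, then 1302, 683 and 2532 counts in the same order. Both counts ran with the depth and the microglial markers of the lanes, and Ctss is itself among the 13 markers. Of all genes, 11.6% passed as higher between TIA 3d and TIA 24h, where Cd74 was at 0.07 and Ifi30 at 1.13. Ctss and Lgmn both passed as higher there, by 4.04 ± 0.97 for Ctss (log2, SE, limma, adjusted p = 0.0232) and 3.87 ± 1.01 for Lgmn (adjusted p = 0.0304). Both also passed with scaling to the lane total (3.09 and 2.92), but were at 1.33 and 1.16 with quantile normalisation and turned to -0.38 and -0.57 with the microglial markers as a covariate and to -1.31 and -1.79 with the lane total as a covariate, where neither passed. Against Sham they were 2.85 (adjusted p = 0.16) and 2.79 (adjusted p = 0.167) in TIA 3d, and in TIA 24h -1.19 (adjusted p = 0.782) and -1.08 (adjusted p = 0.792), none past the threshold.

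Of the class I list, 2 of 21 genes were measured, the chaperone gene Calr and Mr1, whose product presents vitamin metabolites. Neither passed in TIA 3d against TIA 24h, at 2.26 (limma, adjusted p = 0.0845) for Calr and 0.82 (adjusted p = 0.286) for Mr1. Without TIA 24h 3 and Sham 3, Calr was 1.97 and passed (adjusted p = 0.037), and Mr1 was 1.01 (adjusted p = 0.231). The same genes were at 1.68 (adjusted p = 0.297) and 0.60 (adjusted p = 0.534) in TIA 3d against Sham, and in TIA 24h against Sham -0.58 (adjusted p = 0.87) and -0.22 (adjusted p = 0.946).

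Of 22 other costimulatory and coinhibitory ligands, 7 were measured, and 1 passed as higher in TIA 3d against TIA 24h, against 11.6% of all genes, with 0 lower and a median difference of -0.51 beside -0.25 over all genes. That gene was Slamf9, a receptor of the SLAM family, which rose by 1.47 ± 0.38 (log2, SE, limma, adjusted p = 0.0302), with 8 to 10 counts in TIA 24h and 43 to 94 in TIA 3d. It was above 0 in all 6 settings of the plot of scalings, but did not pass with scaling to the lane total (0.52, adjusted p = 0.334), quantile normalisation (adjusted p = 0.11), or with the microglial markers (adjusted p = 0.817) or the lane total (adjusted p = 0.922) as a covariate. Scaled to the lane total, 4 of the 7 passed as lower, beside 41% of all genes, and without TIA 24h 3 and Sham 3, 1 passed as lower and 1 as higher. In TIA 3d against Sham, where 0 passed and the median was -0.25, Slamf9 was 1.52 (adjusted p = 0.114) and the adhesion ligand Icam2 -0.99 (adjusted p = 0.238). In TIA 24h against Sham, where 0 passed and the median was 0.28, Tnfsf8 was 0.997 (adjusted p = 0.723) and Tnfsf4 -0.66 (adjusted p = 0.783).

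Receptors and signalling chains of T cells, the counterparts of these ligands, were measured for 7 of 17 genes. Cd8a passed in TIA 3d against TIA 24h as lower by -1.67 ± 0.54 (log2, SE, limma, adjusted p = 0.0474) on 3 to 10 counts a lane, 0 passed as higher, and the median was -0.76 beside -0.25 over all genes. Of all genes, 7.53% passed as lower. Lag3 was the 1 gene of the 7 above 0, at 1.52, and did not pass (limma, adjusted p = 0.0754). Its counts were 51, 20 and 4 in Sham, 12, 10 and 5 in TIA 24h, and 70, 48 and 88 in TIA 3d. Scaled to the lane total, 4 of the 7 passed as lower, with a median of -1.71 beside -1.19 and 41% of all genes lower. The Cd8a counts were 10, 8 and 6 in TIA 24h and 5, 9 and 7 in TIA 3d, so the recovered counts overlapped between the groups while the normalised values did not. Cd8a also passed with scaling to the lane total (-2.62, adjusted p = 0.0128), but not with median centring (-1.33, adjusted p = 0.0837), quantile normalisation (-1.17, adjusted p = 0.181), the microglial markers (-0.75, adjusted p = 0.963) or the lane total (-0.068, adjusted p = 0.996) as a covariate, or without TIA 24h 3 and Sham 3 (-1.81, adjusted p = 0.0585). In the other comparisons 0 passed, with Tnfrsf4 at 2.00 (adjusted p = 0.617) and Cd8a at 1.14 (adjusted p = 0.689) in TIA 24h against Sham, and Cd3d at -0.78 (adjusted p = 0.301) and Lag3 at 1.07 (adjusted p = 0.301) in TIA 3d against Sham.

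Interferon and NF-kB signalling is known to act on these members, and 14 of 22 genes of that list were measured. Between TIA 3d and TIA 24h, 7 of 14 passed as higher, against 11.6% of all genes, and 0 as lower. The list was chosen with earlier results of these data known. Of its genes, 13 of 14 were above 0, with a median difference of 1.05 beside -0.25 over all genes. They were the interferon receptor subunits Ifnar1 (1.83, limma, adjusted p = 0.0311) and Ifnar2 (1.47, adjusted p = 0.0379), the transcription factors Irf8 (1.85, adjusted p = 0.0229) and Irf1 (1.51, adjusted p = 0.0351), the NF-kB subunits Rela (2.19, adjusted p = 0.0304) and Nfkb2 (1.62, adjusted p = 0.0455), and the inhibitor Nfkbia (1.89, adjusted p = 0.0474). Irf8 had 9, 6 and 7 counts in TIA 24h and 94, 48 and 83 in TIA 3d, while Nfkbia had 8, 7 and 4 against 75, 34 and 94. The TIA 3d lanes were also the deeper ones. The deposited values of both genes were separated between the TIA groups too, as were 22.1% of all genes as higher. With median centring the count was again 7 of 14. With scaling to the lane total it was 0 higher and 1 lower, although 13 of 14 were above the median of all genes, and with quantile normalisation or the microglial markers as a covariate 0 passed. With the lane total as a covariate 0 passed too. Nfkbia turned to -0.16 under the microglial markers and to -0.69 under the lane total as a covariate. Without TIA 24h 3 and Sham 3, 4 of 14 passed, namely Ifnar1, Irf8, Nfkb2 and Rela. Against Sham, 0 of 14 passed in TIA 3d, Nfkbia coming closest at 3.44 (adjusted p = 0.0558) and Nfkb2 at 2.21 (adjusted p = 0.114). In TIA 24h against Sham 0 passed and the median was -0.10, with Rela at -1.95 (adjusted p = 0.617) and Nfkbia at 1.55 (adjusted p = 0.647). Irf8 is also a gene of microglial identity, and the microglial markers of the same lanes are given above.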

How the data were processed

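Transcripts of cells sorted as CD45-positive, CD11b-positive and 7-AAD-negative were counted by nCounter in 9 samples, grouped by their titles. The deposited values are log2 of counts that the authors divided, per lane, by the geometric mean of housekeeping probes chosen by geNorm in ROSALIND. They also excluded genes below the highest negative control, and whether this applies to the deposited table is not given in the sources used here. In each lane, 2 to the power of the values, divided by a single factor of that lane, gave whole counts (within 0.01 counts, 100% of values), used for depth and some alternatives.

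The log2 values of all 757 genes were fitted with group means alone in R 4.3.3 with limma 3.58.1 (eBayes after lmFit, 7.23 prior degrees of freedom). An F test and 3 two-sided contrasts were adjusted by Benjamini-Hochberg over all genes, at a threshold of 0.05. The script was tested on simulated data. The members and lists were chosen with earlier results of these data known. All members were named. Of the lists chosen by function, genes past the threshold were named or, where none passed, those with the smallest p. Cell type markers were named only in part. Gene symbols were matched to RefSeq (750 directly, 7 through older symbols), and promoters were found for 3 members. Alternatives changed the scaling, filter, pseudocount (16), covariates, model and lanes used.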

Additional observations from a re-analysis of the deposited data

Results flagged for a closer look

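Cd83 met a test of the TIA 3d change against the TIA 24h change, and the Psmb8 lanes of the 2 times lay on opposite sides of the Sham mean. For Cd83, which supports MHC class II and CD86 at the cell surface, the change from Sham at TIA 3d exceeded that at TIA 24h by 1.74 on the log2 scale, which is the contrast of TIA 3d against TIA 24h and passed the test (limma, adjusted p = 0.0249). All 3 TIA 3d lanes were above all other lanes. For Psmb8, the immunoproteasome subunit, every TIA 24h lane lay below the Sham mean of 4.72 and every TIA 3d lane above it, as for 9.51% of all genes. The Psmb8 difference of 1.11 between the time points did not pass (limma, adjusted p = 0.06), nor did those from Sham, -0.62 (adjusted p = 0.723) at TIA 24h and 0.49 (adjusted p = 0.468) at TIA 3d. The latter turned negative with lane-total scaling (-0.27), voom (-0.17) and quantile normalisation (-0.031). Cd86 (1.63) and Ifi30 (1.13) had larger differences between the time points without this pattern, and did not pass either. The groups hold 3 lanes each, so single lanes were not tested as outliers.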

How the results depend on the processing

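Depth limits these results, since 3 of the 9 lanes held 6560 to 7924 counts over 757 genes, members reached as few as 3 counts in a lane, and all TIA 3d lanes were the deepest. There were 22 alternatives per difference. Voom changed both the scaling and the weights, and the intensity trend came with a robust prior. In TIA 24h against Sham no member passed under any of them.

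Between TIA 3d and TIA 24h, the number of members past the threshold went from 1 to 4 with array weights (3 higher, 1 lower). It was 3 with median centring (144 genes of the table), the genes of lowest mean left out (141 of 568), a pseudocount (146), or an intensity trend and robust prior (177). Without the 2 lanes lowest in microglial markers it was 2 (129 genes). It was 0 with quantile normalisation (7 genes), ranks within the lane (9 genes), an ordinary linear model, or the lane total or the microglial markers as a covariate (0 genes each). Array weights called 314 genes in all, in place of 145. With scaling to the lane total (344 genes) or voom on recovered counts (385 genes), the 1 member was Cd40, lower in TIA 3d, in place of Cd83. Leaving out single lanes gave 0 to 3 members, with 0 to 226 genes of the table. In the F test, 0 members became 3 with array weights (295 genes of the table, 0 before), 2 with the trend and robust prior (50 genes), 1 with median centring (52), the low filter (40), the pseudocount (31) or voom (294), and 0 to 2 without single lanes (2 without Sham 1, with 136 genes, or Sham 3, with 126). In TIA 3d against Sham, 0 became 2 with array weights (174 genes, 0 before) and 0 to 2 without single lanes, the 2 being Cd83 and Cd86 without Sham 1 (84 genes). Deviations from the group means correlated between -0.237 and 0.271 for same-numbered lanes, and between -0.373 and 0.305 for others. No pairing by replicate number was seen, but with 3 lanes a group these correlations cannot exclude one. With the replicate as a block, 1 member passed the F test, with 54 genes in all (0 before). In TIA 3d against TIA 24h 1 member passed, with 140 genes in all, and no member passed in the other comparisons.

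None of the differences that changed sign had passed. In TIA 24h against Sham, median centring gave -0.17 for H2-T23, -0.15 for Ifi30 and -0.14 for Cd83. The lane total as a covariate gave 0.11 for Cd74, -0.21 for H2-T23 and -0.15 for Cd40, and the microglial markers as a covariate 0.14, -0.20 and -0.25. Without the 2 lanes lowest in microglial markers, Ifi30 was -0.098, Cd86 -0.48 and Cd83 -0.070. Without single lanes, Cd74 ranged from -0.63 to 0.12, H2-T23 from -0.70 to 0.78, Ifi30 from -0.24 to 0.30, Cd86 from -0.34 to 0.85, Cd40 from -0.093 to 0.74 and Cd83 from -0.051 to 0.18.

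In TIA 3d against Sham, Cd74 was 0.0018 with array weights and -0.56 to 0.19 without single lanes. Scaling to the lane total gave -0.34 for H2-T23 and -0.27 for Psmb8, voom -0.30 and -0.17, and quantile normalisation -0.031 for Psmb8. With the lane total as a covariate, Ifi30 was -0.0013 and Cd40 0.29. Between the TIA time points, Cd74 was -0.0094 with quantile normalisation, -0.88 with the lane total, -1.50 with it as a covariate, -0.93 with voom, -1.05 with microglial markers as a covariate and -0.20 to 0.23 without single lanes. H2-T23 was -0.54 with the lane total, -0.53 with voom and -0.36 to 1.12 without single lanes. With the lane total as a covariate, Ifi30 was -0.48, Cd86 -0.52 and Cd40 0.45, and with the microglial markers Cd40 was 0.19. The cause of these changes was not tested.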
